A study of Mus musculus with 24 samples.

Results

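The levels of 8 liver genes that desaturate or elongate fatty acids were followed across 2 inbred mouse strains and 2 diets: the desaturase genes Fads1, Fads2, Fads3 and Scd2, and the elongase genes Elovl1, Elovl2, Elovl5 and Elovl6. They were taken by symbol from the GENCODE M21 annotation, and all 8 were found among the 53677 gene identifiers of the count matrix and passed the filter on low counts. RNA had been sequenced from the livers of 5 129S1/SvImJ mice on chow, 6 129S1/SvImJ mice on a high-fat diet (HFD), 6 C57BL/6J mice on chow and 7 C57BL/6J mice on HFD, 1 library per mouse. Neither strain carries a transgene or a drug treatment in the labels, which leave out sex, age, diet composition and feeding time.

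Mammalian cells make long-chain fatty acids by adding carbon units in pairs with elongases and by placing double bonds with desaturases. Fads2 (delta-6 desaturase) and Fads1 (delta-5 desaturase) act in turn, with elongation by Elovl5 between them, to turn dietary essential fatty acids into arachidonic and eicosapentaenoic acid, and Elovl2 carries the chain on toward docosahexaenoic acid (DHA). Elovl6 lengthens palmitate to stearate and Scd2 is a delta-9 desaturase that makes monounsaturated acids, a reaction carried out in adult liver mainly by its paralog Scd1. Several of these liver genes are textbook targets of the sterol regulatory element-binding proteins (SREBPs), which polyunsaturated fatty acids restrain.

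The promoters of 2 genes are shown because Elovl5 had opposite fitted diet effects in the strains and Elovl6 differed between strains on both diets. The choice is not exclusive: Fads2 and Fads3 also had opposite fitted diet effects, and Fads2 and Elovl2 also differed between strains on both diets. Each sequence is from RefSeq (GRCm38.p6, a C57BL/6J reference) and runs 5′ to 3′ along the gene, from 250 bases before the RefSeq transcription start through the first 30 bases of the GENCODE M21 gene model. That model begins upstream of the RefSeq start of Elovl6, so its window is shorter. Capitals mark matches on either strand to TCANNCCAC (a generic sterol regulatory element), CCAAT or CACGTG (an E-box). The Elovl5 window is chr9:77917115-77917393 and the Elovl6 window chr3:129532136-129532384, both on the plus strand.
Elovl5: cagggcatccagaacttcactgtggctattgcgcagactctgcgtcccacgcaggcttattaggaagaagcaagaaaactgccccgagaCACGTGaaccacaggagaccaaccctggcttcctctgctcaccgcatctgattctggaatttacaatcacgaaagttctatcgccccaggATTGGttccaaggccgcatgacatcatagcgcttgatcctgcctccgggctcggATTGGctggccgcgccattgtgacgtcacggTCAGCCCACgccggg
Elovl6: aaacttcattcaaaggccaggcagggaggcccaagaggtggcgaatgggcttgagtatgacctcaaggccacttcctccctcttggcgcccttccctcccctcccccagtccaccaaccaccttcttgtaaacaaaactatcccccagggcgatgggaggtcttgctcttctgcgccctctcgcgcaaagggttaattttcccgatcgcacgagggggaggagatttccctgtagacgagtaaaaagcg
In the Elovl5 window, 1 CACGTG lies at -161 to -156, CCAAT is on the minus strand at -71 to -67 and at -17 to -13, and 1 TCANNCCAC spans bases 15 to 23 from the RefSeq start. No capital falls in the Elovl6 window. The promoters of Fads2, Fads3, Elovl1 and Elovl2 were searched too and held no TCANNCCAC or CACGTG, and CCAAT was found in those of Fads3 and Elovl1. No promoter of Fads1 or Scd2 was available. A DR1 element (a direct repeat of the nuclear receptor half-site with 1 base between) was searched too and matched in neither. Among 32851 RefSeq promoter windows, each searched over 250 bases before and 50 from the start, 4.18% hold TCANNCCAC, 37.4% CCAAT, 7.15% CACGTG and 0.0396% a DR1 element. These are matches of letters, and the promoters of 129S1/SvImJ were not analysed here.

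Library totals were 6707013 to 13124881 gene counts, and levels are given in CPM, the share of a library's counts on a common scale, after TMM, edgeR's correction for library composition. Hepatocyte markers (Alb, Apoa1, Ttr, Cps1 and Serpina1a) were detected in every library, with sums of 53662 to 88729 CPM. The defining adipocyte genes Adipoq, Lep and Plin1 were at or near 0 in most libraries, and Adipoq passed 0.5 CPM in 129S1/SvImJ chow replicate 1 (0.866 CPM) and C57BL/6J HFD replicate 5 (1.23 CPM). The 6 adipocyte markers summed to 50.4 to 267 CPM in C57BL/6J HFD and to at most 12.3 CPM in the other groups, mostly through Cfd, which rose with HFD in C57BL/6J, as did Fabp4. Kupffer cell markers summed to 32.3 to 102 CPM in 129S1/SvImJ and 92.2 to 205 CPM in C57BL/6J, and all 5 were lower in 129S1/SvImJ on chow and 3 on HFD. On HFD 2 of 2 tested lymphocyte, 2 of 3 recruited macrophage and neutrophil, 3 of 5 sinusoidal endothelial, 3 of 5 cholangiocyte and 1 of 5 stellate cell markers were also lower in 129S1/SvImJ, and 2 of 5 hepatocyte, 1 of 5 endothelial, 1 of 5 stellate and 1 of 2 tested brain and nerve markers were higher. Of all tested genes, 19.1% were lower and 17.9% higher in 129S1/SvImJ on HFD, so 1 of 5 is near that share. On chow 2 of 2 tested lymphocyte, 1 of 3 recruited macrophage and neutrophil and 3 of 5 endothelial markers were lower in 129S1/SvImJ. So were 1 of 5 cholangiocyte and 1 of 5 stellate markers, and 1 of 5 hepatocyte and 1 of 5 endothelial markers were higher. Of all tested genes, 12.5% were lower and 12.6% higher on chow. With HFD 4 of 5 hepatocyte markers fell in C57BL/6J and 1 in 129S1/SvImJ. In 129S1/SvImJ 1 of 5 Kupffer markers rose, C1qa (0.72, edgeR adjusted p = 0.0330), and 1 of 5 stellate markers, Lrat (0.74, edgeR adjusted p = 0.0259). In C57BL/6J 1 of 5 stellate markers rose, Col1a1 (1.95, edgeR adjusted p = 0.0289). The other 4 stellate markers were not called in either strain. Among them, mean CPM was lower on HFD for Acta2 and Des in 129S1/SvImJ and for Reln in C57BL/6J, and higher for the rest. With HFD 5.41% of all tested genes rose and 5.01% fell in 129S1/SvImJ, and 7.66% and 7.2% in C57BL/6J. In tissue RNA, fewer cells of a type and less RNA per cell cannot be told apart, and the part of these markers in the results below was not tested.

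Read against the length of each gene's merged exons, the 8 genes fell into an abundant and a scarce set. Elovl5, Elovl2, Fads1 and Fads2 had group means of 44.33 to 359.0 CPM per kb. Elovl6 had 11.07 to 38.54, Elovl1 9.11 to 12.19, Scd2 1.09 to 3.17 and Fads3 0.729 to 0.806 CPM per kb. The order at the top changed by group. In 129S1/SvImJ on chow Elovl5 (215.2 ± 33.4 CPM per kb, SD, n = 5) led Elovl2 (169.3 ± 22.4), and it was the higher of the pair in all 5 libraries. In 129S1/SvImJ on HFD Elovl2 (130.2 ± 7.85, n = 6) and Elovl5 (126.6 ± 18.5) were within their spread, with Elovl2 above Elovl5 in 4 of 6 libraries. On chow in C57BL/6J, Elovl2 (235.9 ± 22.8, n = 6) was above Elovl5 (215.9 ± 66.2) in 4 of 6 libraries, so that these neighbours also overlapped. On HFD in that strain Elovl5 came first at 359.0 ± 164 CPM per kb (SD, n = 7), and Fads2 (234.9 ± 72.6) and Elovl2 (211.9 ± 39.8) were not separated, Fads2 being higher in 3 of 7 libraries. Fads1 was above Fads2 per kb in 4 of 5 libraries of 129S1/SvImJ on chow, and Fads2 was above Fads1 in every library of the other 3 groups.

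**Figure D1:**
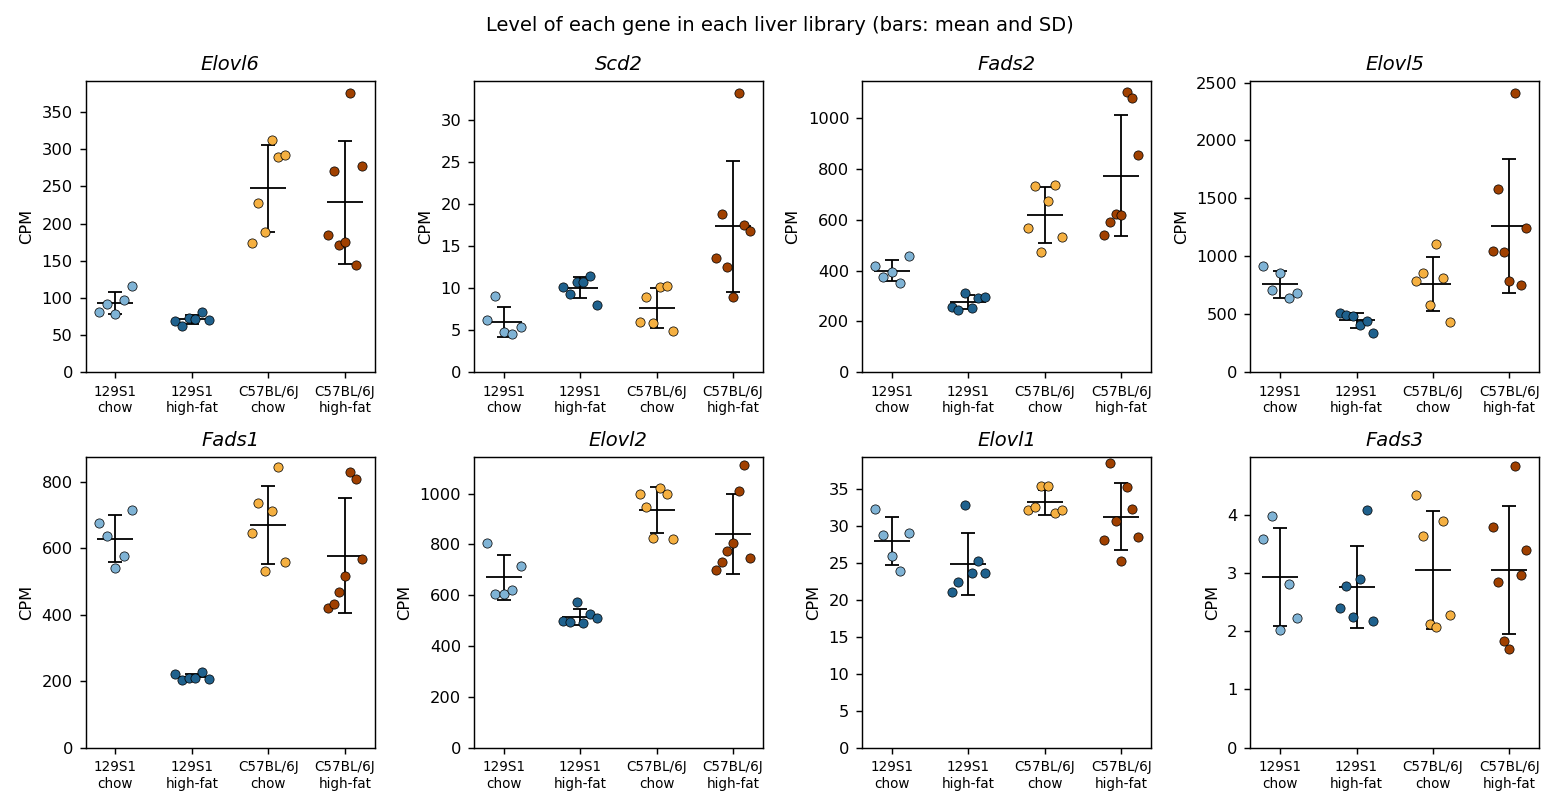
Level in CPM (linear axis from 0) of each of the 8 genes in each library, by strain and diet; bars are mean and SD. Fads1 in 129S1/SvImJ on HFD (205 to 227 CPM) lies below every other library, and C57BL/6J on HFD has the largest SD of the 4 groups for each of the 8 genes.

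The first question was how HFD changed these genes in 129S1/SvImJ. Of the 8, 3 fell (Fads1, Fads2 and Elovl2) and none rose by edgeR's quasi-likelihood test with Benjamini-Hochberg adjustment over 14533 genes, where 5.01% of all tested genes fell and 5.41% rose. At an unadjusted p under 0.05 there were 4 lower and 1 higher, and DESeq2 called 4 lower and 1 higher. Of all genes, DESeq2 called 852 lower and 935 higher. Fads1 fell 2.95-fold, and Fads2 and Elovl2 fell 1.45-fold and 1.30-fold. The median log2 fold change of the 8 genes was -0.38, against -0.004 for all genes tested, and 4 of the 8 had groups that did not overlap, as did 7.73% of all genes.

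Fads1 (ENSMUSG00000010663.4, chr19:10182888-10196877 on mm10, plus strand), the delta-5 desaturase, was at 674, 638, 540, 575 and 716 CPM in the 5 chow libraries of 129S1/SvImJ. On HFD the 6 libraries lay between 205 and 227 CPM with a median of 209. Every HFD library was thus below every chow library. The SD was 9.42 around a mean of 213 CPM on HFD and 71.6 around a mean of 628 CPM on chow. The log2 fold change was -1.56 ± 0.155 (SE) with edgeR adjusted p = 2.78e-07, and it remained called whichever library was left out, with adjusted p up to 2.11e-06. Its neighbour Fads2 (ENSMUSG00000024665.7, chr19:10062765-10101746, minus strand), the delta-6 desaturase, was at 417, 376, 395, 350 and 460 CPM on chow and at 246 to 310 CPM on HFD (median 276). These groups did not overlap either, but the step was smaller, at -0.53 ± 0.164 (edgeR adjusted p = 0.0378).

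The Fads2 call in 129S1/SvImJ was marginal. It was lost in 9 of the 24 fits that leave out 1 library: chow replicates 1, 2, 3 and 5 (edgeR adjusted p = 0.0869, 0.0607, 0.0602 and 0.0863) and HFD replicates 1, 2, 4, 5 and 6 (0.0687, 0.0741, 0.0725, 0.0556 and 0.0523). Fads3 (ENSMUSG00000024664.4, chr19:10041569-10060110, plus strand), the scarcest of the 3 clustered genes and known as a desaturase of sphingoid bases, had 14 to 59 counts per library. It was at 2.02 to 3.98 CPM on chow and 2.18 to 4.08 CPM on HFD in 129S1/SvImJ, with a difference of -0.08 (95% interval -0.61 to 0.45, edgeR adjusted p = 0.893).

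Of the elongases of polyunsaturated acids, Elovl2 (ENSMUSG00000021364.16, chr13:41182381-41220405, minus strand) was at 808, 607, 605, 622 and 716 CPM on chow in 129S1/SvImJ. On HFD it was at 492 to 574 CPM with a median of 505. The groups did not overlap, and the log2 fold change was -0.38 ± 0.107 (edgeR adjusted p = 0.0231). The call was lost without chow replicate 1 (0.101) or chow replicate 5 (0.051), the highest libraries of their group. Elovl5 (ENSMUSG00000032349.13, chr9:77917364-77984519, plus strand) was at 912, 709, 851, 637 and 682 CPM on chow and 341 to 513 CPM on HFD (median 463). Here too every HFD library was below every chow library, yet -0.77 ± 0.251 missed the threshold (edgeR adjusted p = 0.0541). Elovl5 was called lower without C57BL/6J chow replicate 4 (0.0465) or 6 (0.0388), or without C57BL/6J HFD replicate 4 (0.0464), 5 (0.017) or 6 (0.0413). Those libraries are in neither group of this comparison, but they enter the same fit.

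Among the genes of saturated and monounsaturated acids, Elovl6 (ENSMUSG00000041220.10, chr3:129532355-129638495, plus strand) was at 78.0 to 116 CPM on chow and 61.8 to 81.1 CPM on HFD in 129S1/SvImJ. The groups overlapped, and -0.38 ± 0.207 did not pass the test (edgeR adjusted p = 0.266). Scd2 (ENSMUSG00000025203.5, chr19:44293674-44306864, plus strand) was at 6.18, 9.0, 4.72, 4.50 and 5.38 CPM on chow and at 7.95 to 11.4 CPM on HFD (median 10.4). The chow library at 9.0 CPM overlapped the HFD range, and 0.75 ± 0.280 missed the threshold (edgeR adjusted p = 0.0916). Scd2 was called higher without C57BL/6J HFD replicate 5 (edgeR adjusted p = 0.0287), the library with the highest Scd2, and by DESeq2 (adjusted p = 0.0437). Elovl1 (ENSMUSG00000006390.15, chr4:118428093-118432953, plus strand), an elongase of very-long-chain acids, differed by -0.17 ± 0.107 (edgeR adjusted p = 0.343).

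In C57BL/6J the same diet raised Scd2 and Elovl5 and lowered none of the 8 genes, where 7.66% of all tested genes rose and 7.2% fell. None of the 8 had groups that did not overlap, as against 3.89% of all genes, and the median log2 fold change of the 8 was -0.04 (0.007 over all genes). Scd2 rose 2.25-fold and Elovl5 1.66-fold. Fads1 and Fads2 did not pass the test. At an unadjusted p under 0.05 there were 3 higher and none lower, and DESeq2 gave the same counts of calls as edgeR.

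Scd2 lay between 4.82 and 10.2 CPM (median 7.46) on chow in C57BL/6J and between 8.94 and 33.1 CPM (median 16.8) on HFD. The ranges overlapped at their edges only, through HFD replicate 4 and the 3 highest chow libraries, and the top HFD value came from replicate 5, the library with adipocyte transcripts. The log2 fold change was 1.17 ± 0.239 (edgeR adjusted p = 0.00179). Without that library it was 0.94 ± 0.194 (edgeR adjusted p = 0.00222), and Scd2 stayed called whichever library was left out.

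Elovl5 was at 432 to 1104 CPM (median 797) on chow and at 751 to 2409 CPM (median 1042) on HFD in C57BL/6J. The ranges overlapped widely, and HFD replicate 5 stood highest, above replicate 2 at 1584 CPM. The change of 0.73 ± 0.234 (edgeR adjusted p = 0.0370) was lost in 8 of the 24 fits that leave out 1 library. These were the fits without chow replicates 1, 2, 3, 5 and 6 (edgeR adjusted p = 0.0593, 0.0506, 0.0852, 0.0567 and 0.0841) and without HFD replicates 2, 5 and 7 (0.0769, 0.0983 and 0.0573). Without HFD replicate 5 the log2 fold change of Elovl5 was 0.50.

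Fads1 was at 531 to 843 CPM (median 678) on chow and 419 to 830 CPM (median 516) on HFD in C57BL/6J, a difference of -0.22 (95% interval -0.49 to 0.06, edgeR adjusted p = 0.326). Fads2 was at 473 to 739 CPM (median 621) on chow and 541 to 1105 CPM (median 623) on HFD, a difference of 0.32 (interval 0.02 to 0.61, edgeR adjusted p = 0.162). Both pairs of groups overlapped. Elovl2 (-0.16), Elovl6 (-0.11), Elovl1 (-0.09) and Fads3 (0.01) had edgeR adjusted p from 0.313 to 0.983.

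The HFD libraries of C57BL/6J were not homogeneous for Fads1 and Fads2. The mouse identifiers in the labels carry a number, 1 for replicates 1 to 4 and 16 for replicates 5 to 7, whose meaning the labels do not give. Fads2 was at 541 to 623 CPM in the 4 mice with number 1 and at 855 to 1105 CPM in the 3 with number 16. Fads1 was at 419 to 516 CPM and 567 to 830 CPM in the same sets, so neither gene overlapped between them. Scd2, Elovl5, Elovl2, Elovl6, Fads3 and Elovl1 overlapped. The share of all genes that did not overlap between these sets of 4 and 3 mice is not given here. The 2 sets also stood apart for Srebf1, a regulator described further on (589 to 744 CPM with number 1 and 813 to 947 CPM with number 16), and for the elongase Elovl3 in the other direction (84.8 to 112 CPM and 48.6 to 67.6 CPM). With the mice of number 16 left out, Fads1 was called lower on HFD (-0.55 ± 0.106, edgeR adjusted p = 0.00154) and the Fads2 difference was -0.06 (edgeR adjusted p = 0.794). With the mice of number 1 left out, Fads2 was called higher (0.71 ± 0.126, edgeR adjusted p = 0.00124) and the Fads1 difference was 0.13 (edgeR adjusted p = 0.570). The 2 numbers are a division taken from the labels, and it was examined after the values were seen. Since both genes were lower with number 1, leaving out a set shifts both in a direction fixed beforehand. The calls without a set are therefore no support for a diet effect on either gene.

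**Figure D2:**
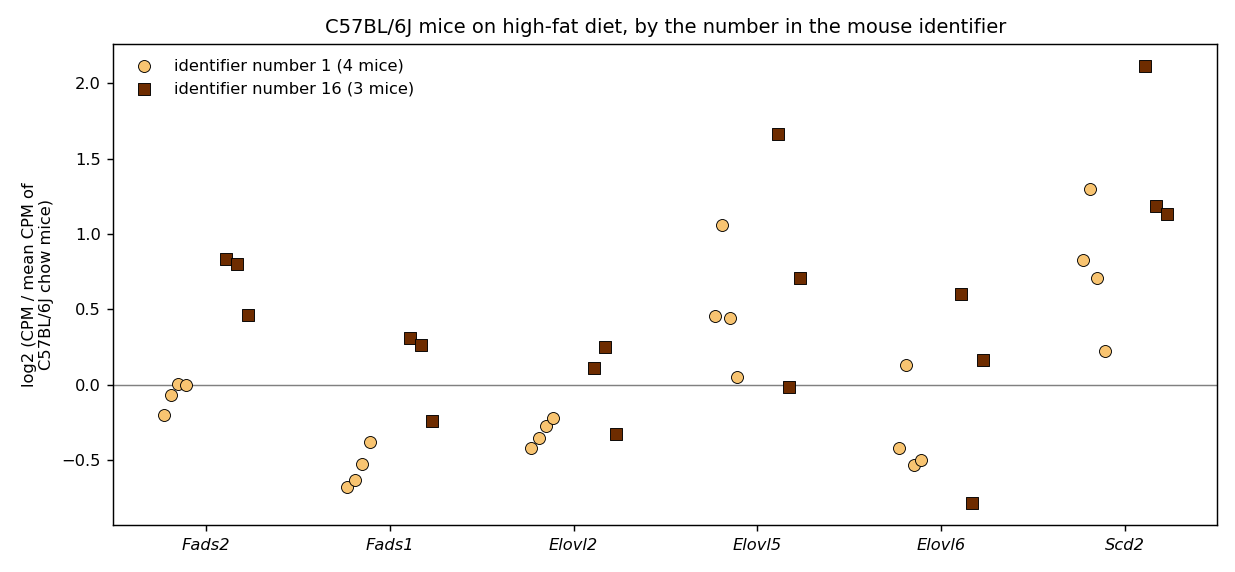
Level of 6 of the genes in the 7 C57BL/6J mice on HFD, as log2 of CPM over the mean CPM of C57BL/6J mice on chow, with circles for identifier number 1 (4 mice) and squares for number 16 (3 mice). For Fads2 and Fads1 all squares lie above all circles, and for the other 4 genes they overlap.

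Whether the strains responded differently to the diet was asked with the interaction of strain and diet, which called 43 genes (0.296% of those tested). Fads1 was the only one of the 8, at -1.34 ± 0.210 (edgeR adjusted p = 0.0082), and 0.124% of all genes were called in that direction and 0.172% in the other. The call held whichever library was left out, with adjusted p up to 0.0295. It was lost in 6 of 21 other settings, with the direction kept. These were both levels of a split given in the next paragraph, and 4 fits without all mice of 1 identifier number. Without 129S1/SvImJ chow replicates 1 to 3 the Fads1 interaction was -1.37 (edgeR adjusted p = 0.133), without 129S1/SvImJ HFD replicates 1 to 3 or 4 to 6 it was -1.33 and -1.35 (edgeR adjusted p = 0.0674 and 0.111), and without C57BL/6J chow replicates 1 to 3 it was -1.27 (edgeR adjusted p = 0.0728). In those 6 settings the interaction called 0 to 4 genes of all tested. Elovl5 (-1.50 ± 0.343, edgeR adjusted p = 0.0560) and Fads2 (-0.85 ± 0.223, edgeR adjusted p = 0.0797) were negative without passing the threshold. DESeq2 called both, with adjusted p = 0.00928 for Elovl5 and 0.0170 for Fads2, among 297 genes that it called in the interaction. Single libraries moved them across it: Elovl5 was called without 129S1/SvImJ chow replicate 4 (edgeR adjusted p = 0.0477), C57BL/6J chow replicate 4 (0.0443), or C57BL/6J HFD replicate 4 (0.0292) or 6 (0.0283), and Fads2 without C57BL/6J HFD replicate 4 (0.0489). In those fits the interaction called 40 to 170 genes of all tested. For Elovl2 (-0.22), Elovl6 (-0.27), Scd2 (-0.43), Elovl1 (-0.08) and Fads3 (-0.09) the edgeR adjusted p was 0.509 to 0.942, and their intervals, such as -0.51 to 0.06 for Elovl2 and -1.15 to 0.29 for Scd2, include differences of either sign.

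Libraries also differed in the share of 7SK, an abundant noncoding RNA, and were split after the values were seen at 2983 CPM of it. Below that level the Fads1 diet effect in 129S1/SvImJ was -1.71 and above it -1.37 (edgeR adjusted p = 4.42e-05 and 0.00732). The Fads1 interaction was -1.08 below and -1.41 above (edgeR adjusted p = 0.223 and 0.349), and -1.34 with the 7SK level as a term (edgeR adjusted p = 0.0111). The Scd2 rise in C57BL/6J was 0.73 below and 1.43 above (edgeR adjusted p = 0.279 and 0.0275). For Elovl5 in C57BL/6J the values were 0.56 and 0.88 (edgeR adjusted p = 0.284 and 0.213), on the side of the pooled value without passing. Fads2 and Elovl2 in 129S1/SvImJ were lower at both levels with edgeR adjusted p from 0.0591 to 0.448. Of all genes tested, the diet effect in 129S1/SvImJ called 305 below and 283 above, against 1514 over all libraries. In C57BL/6J it called 312 and 784, against 2159. For Elovl6 the strain difference on chow was -1.26 below and -1.60 above (edgeR adjusted p = 0.0113 and 0.0218).

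**Figure D3:**
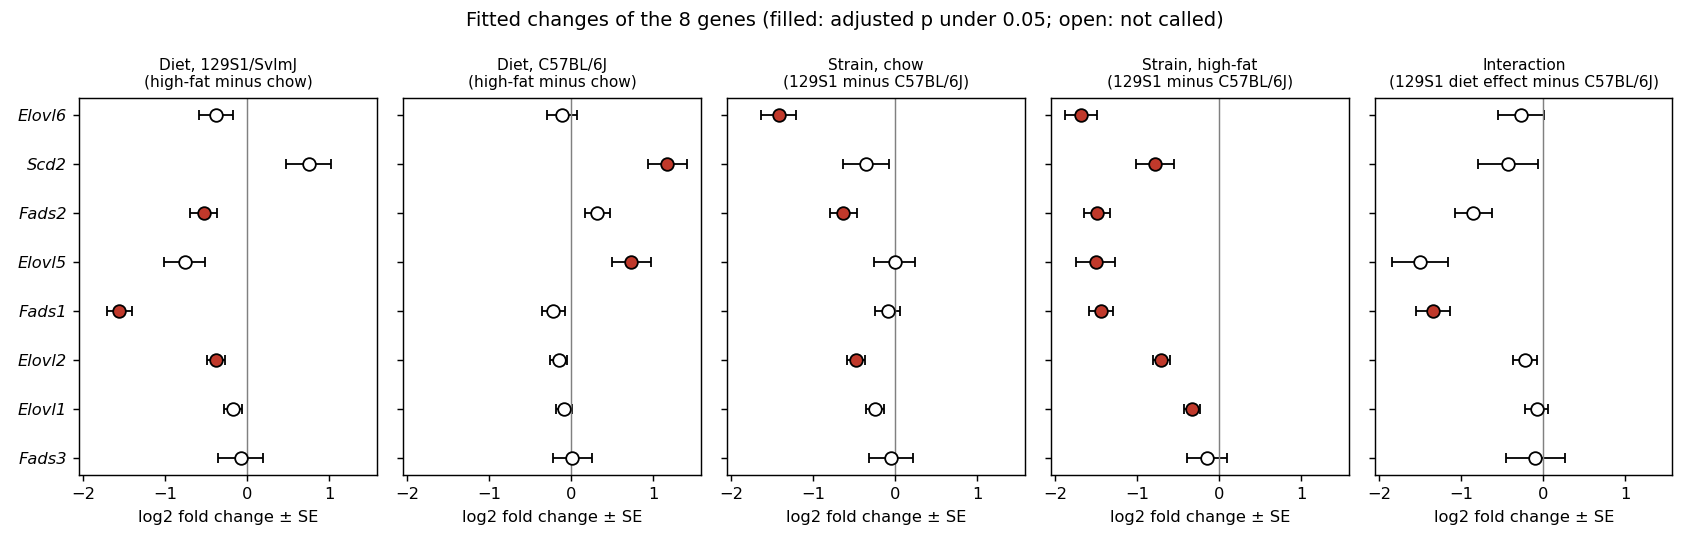
Fitted log2 fold change with SE of each gene in the 5 comparisons; filled circles have edgeR adjusted p under 0.05. On HFD 7 of the 8 genes are filled and lower in 129S1/SvImJ, and in the interaction only Fads1 is filled.

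Between the strains on chow, Elovl6, Fads2 and Elovl2 were lower in 129S1/SvImJ and none of the 8 was higher (none also at an unadjusted p under 0.05 or by DESeq2), where 12.5% of all tested genes were lower and 12.6% higher, 25.0% in all. The groups of those 3 genes did not overlap (15.1% of all genes had groups that did not overlap). The median log2 difference of the 8 genes was -0.30, against 0.0104 over all genes. Elovl6 was at 80.6, 91.9, 78.0, 96.9 and 116 CPM in 129S1/SvImJ and at 174 to 313 CPM (median 259) in C57BL/6J. It was the gene with the widest strain gap, 2.68-fold lower in 129S1/SvImJ (-1.42 ± 0.211, edgeR adjusted p = 2.25e-05). Fads2 was 1.55-fold lower (-0.63 ± 0.166, edgeR adjusted p = 0.00593), from 473 to 739 CPM in C57BL/6J to 350 to 460 CPM in 129S1/SvImJ. Elovl2 was 1.39-fold lower (-0.48 ± 0.108, edgeR adjusted p = 0.00159), from 823 to 1024 CPM to 605 to 808 CPM. The Fads2 call was lost above the 7SK level (edgeR adjusted p = 0.212), without 129S1/SvImJ chow replicates 1 to 3 (0.0994) and without C57BL/6J chow replicates 4 to 6 (0.0580), and the Elovl2 call above the 7SK level (0.0714).

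On chow Fads1 and Elovl5, in contrast, lay in overlapping ranges: the strain difference was -0.09 for Fads1 (95% interval -0.39 to 0.21, edgeR adjusted p = 0.715) and -0.0049 for Elovl5 (interval -0.50 to 0.49, edgeR adjusted p = 0.994). Elovl1 (-0.25 ± 0.107, edgeR adjusted p = 0.0904) was called lower without 129S1/SvImJ HFD replicate 3 (0.0484), the library with the highest Elovl1 of its group. Scd2 (-0.36, edgeR adjusted p = 0.401) and Fads3 (-0.05, edgeR adjusted p = 0.922) did not pass the test.

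On HFD all but Fads3 were lower in 129S1/SvImJ, 7 of 8, where 19.1% of all genes were lower and 17.9% higher, 37.0% in all. None was higher at an unadjusted p under 0.05 or by DESeq2. Of the 8, 5 did not overlap (15.1% of all genes), and the median difference was -1.11, against 0.0045 over all genes. Fads1 was 2.70-fold lower (-1.43 ± 0.146, edgeR adjusted p = 2.79e-08), Fads2 2.80-fold (-1.49 ± 0.156, edgeR adjusted p = 5.34e-08) and Elovl5 2.84-fold (-1.50 ± 0.239, edgeR adjusted p = 3.50e-05). The highest 129S1/SvImJ library was at 227, 310 and 513 CPM for these 3 genes, and the lowest C57BL/6J library at 419, 541 and 751 CPM. Elovl6 was 3.22-fold lower (-1.69 ± 0.195, edgeR adjusted p = 4.85e-07) and Elovl2 1.63-fold (-0.70 ± 0.10, edgeR adjusted p = 3.81e-06), also without overlap.

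Scd2 (-0.78 ± 0.234, edgeR adjusted p = 0.0108) and Elovl1 (-0.33 ± 0.0976, edgeR adjusted p = 0.00942) were lower with overlapping groups. The Scd2 call was lost in 4 of 18 other settings: below the 7SK level given above (-0.49, edgeR adjusted p = 0.445), without 129S1/SvImJ HFD replicates 1 to 3 or 4 to 6 (0.0874 and 0.0695) and without C57BL/6J HFD replicates 5 to 7 (-0.41, edgeR adjusted p = 0.152). That of Elovl1 was lost in 2, below the 7SK level (edgeR adjusted p = 0.552) and without 129S1/SvImJ HFD replicates 4 to 6 (0.0964). Elovl1 shares 53 exon bases with Cdc20 on the other strand and Elovl6 shares 34 with the antisense gene Gm35986, and the strand setting used in counting was not stated in the sources used here. Over all libraries those neighbours had 187 and 759 counts. The submitters' processing notes name only mm10, a C57BL/6J genome, and the part of mapping 129S1/SvImJ reads to it in the strain differences was not tested.

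Ratios of paired genes were taken within each library, as the difference of log2 of CPM + 0.5. In all, 6 pairs were compared over 4 comparisons by exact two-sided permutation tests (24 tests, 14 with Benjamini-Hochberg adjusted p under 0.05). The ratio of Fads1 to Fads2, the second to the first desaturation step, fell with HFD in both strains. Its log2 value in 129S1/SvImJ was 0.69, 0.76, 0.45, 0.71 and 0.64 on chow and -0.57 to -0.21 on HFD (median -0.32). In C57BL/6J it was 0.0027 to 0.19 on chow and -0.59 to -0.27 on HFD (median -0.42). The ratio of CPM, not adjusted for gene length, was thus above 1 in every chow library and below 1 in every HFD library of both strains.

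The mean log2 ratio of Fads1 to Fads2 fell by 1.02 in 129S1/SvImJ (exact permutation p = 0.00216, adjusted 0.00577) and by 0.53 in C57BL/6J (exact permutation p = 0.000583, adjusted 0.00577), each the smallest p that all 462 and 1716 splits can give. On chow the ratio was higher in 129S1/SvImJ by 0.54 without overlap (exact permutation adjusted p = 0.00577). On HFD the strains had -0.37 ± 0.149 and -0.42 ± 0.0980 (SD, n = 6 and 7), a difference of 0.05 (exact permutation p = 0.467, adjusted 0.488). The difference between the strains in how far the ratio fell was not tested. Among C57BL/6J mice on HFD, the ratio was -0.45 to -0.27 with identifier number 1 and -0.59 to -0.41 with number 16, so the division seen in the level of both genes was not seen in their ratio, where the sets overlapped.

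**Figure D4:**
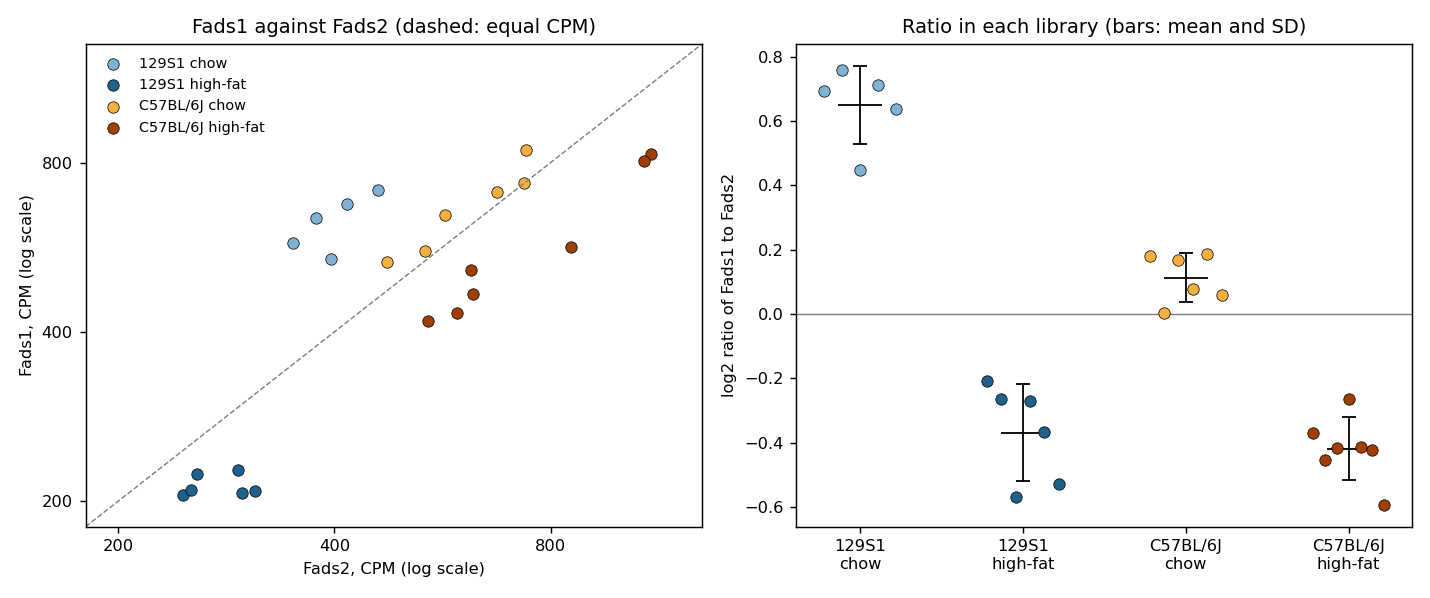
Left, Fads1 against Fads2 in CPM on log axes, 1 point per library, with a dashed line of equal CPM, not adjusted for gene length; right, log2 ratio of Fads1 to Fads2 in each library with mean and SD. All chow libraries lie at or above 0.0027 and all HFD libraries at or below -0.21.

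Elovl2 relative to Elovl5 moved in opposite directions: up by 0.39 with HFD in 129S1/SvImJ (exact permutation adjusted p = 0.0360) and down by 0.85 in C57BL/6J (exact permutation adjusted p = 0.0338), with overlapping groups. Elovl6 relative to Elovl5 fell by 0.84 with HFD in C57BL/6J (exact permutation adjusted p = 0.00577), and 0.40 in 129S1/SvImJ did not pass (exact permutation adjusted p = 0.147). Elovl1 relative to Elovl6 was higher in 129S1/SvImJ on chow (1.14) and on HFD (1.28), both at exact permutation adjusted p = 0.00577 and without overlap. Scd2 relative to Scd1 was higher in 129S1/SvImJ by 1.07 on chow (exact permutation adjusted p = 0.0208) and by 1.10 on HFD (exact permutation adjusted p = 0.00577). With HFD that ratio differed by -0.30 in 129S1/SvImJ and -0.33 in C57BL/6J (exact permutation adjusted p = 0.342 and 0.197).

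The rest of the desaturation and elongation machinery was read from fixed lists. Their counts stand beside 5.41% of all tested genes that rose and 5.01% that fell with HFD in 129S1/SvImJ, and 7.66% and 7.2% in C57BL/6J. Between strains, 12.6% of all genes were higher and 12.5% lower in 129S1/SvImJ on chow, and 17.9% and 19.1% on HFD. Of 9 other desaturase and elongase genes, 5 passed the filter. Scd1, the main stearoyl-CoA desaturase of liver, rose in both strains (1.05 and 1.35, edgeR adjusted p = 0.0169 and 0.0011) and was lower in 129S1/SvImJ on both diets (-1.52 and -1.81). Elovl3, an elongase of saturated and monounsaturated acids, fell in C57BL/6J (-1.13, edgeR adjusted p = 0.0138), with -1.01 in 129S1/SvImJ (edgeR adjusted p = 0.0534). Fads6 was lower in 129S1/SvImJ on both diets (-0.53 and -0.52), and Degs1 and Elovl7 passed in no comparison. Of the 6 genes for the other steps of the elongation cycle, none passed with HFD in 129S1/SvImJ by edgeR (2 had unadjusted p under 0.05) and 1 fell in C57BL/6J (Hacd3, a dehydratase, -0.22). The ketoacyl reductase Hsd17b12 was lower in 129S1/SvImJ on chow (-0.54) and HFD (-0.94), and the enoyl reductase Tecr was higher (0.34 and 0.31).

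Of 5 tested electron donors, the cytochrome b5 genes and their reductases, Cyb5b (-0.36) and Cyb5r3 (-0.37) fell and Cyb5a (0.29) rose with HFD in 129S1/SvImJ, and Cyb5r4 (0.21) rose in C57BL/6J. Of 10 regulators, 1 rose and 3 fell in each strain. Srebf1, which encodes SREBP1, rose (0.67 in 129S1/SvImJ and 1.40 in C57BL/6J, edgeR adjusted p = 0.0309 and 2.44e-05). Srebf2, which encodes SREBP2, fell (-1.39 and -0.81), as did the SREBP escort Scap (-0.47 and -0.58) and the retention factor Insig1 (-1.45 and -0.77). On HFD Srebf1 (-0.66) and Srebf2 (-0.34) were lower in 129S1/SvImJ.

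Of 9 genes of lipid synthesis known as SREBP1 targets, 5 fell and none rose with HFD in 129S1/SvImJ (median -0.63), among them Acss2 (-1.59), the fatty acid synthase Fasn (-1.58) and the acetyl-CoA carboxylase Acacb (-1.23). In C57BL/6J 1 rose (Thrsp, 1.16) and 1 fell (Acss2, -1.29), with a median of 0.07 and Fasn at 0.07 (edgeR adjusted p = 0.907). On HFD 8 of the 9 were lower in 129S1/SvImJ, with Fasn at -2.01. The interaction called none of the 9 by edgeR (3 had unadjusted p under 0.05, and Fasn had edgeR adjusted p = 0.0895). All 6 SREBP2 targets fell in 129S1/SvImJ and 5 fell in C57BL/6J, including Hmgcs1 (-2.94 and -1.76) and Idi1 (-4.03 and -3.36). The interaction called none of the 6 by edgeR (5 had unadjusted p under 0.05, all more negative in 129S1/SvImJ).

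Of 8 PPARalpha targets, genes of fatty acid oxidation, 2 rose in 129S1/SvImJ, including Ehhadh (0.88), and 3 in C57BL/6J, including Ehhadh (0.55) and Vnn1 (1.23), and none fell. Of 7 genes of the peroxisomal last step to DHA, 2 rose in 129S1/SvImJ and 4 in C57BL/6J, with Hsd17b4 (0.35 and 0.41) among them in both. Of 9 genes that activate polyunsaturated acids or build them into lipids, the lysophospholipid acyltransferase Lpcat3 rose in both strains (0.30 and 0.37) and the acyl-CoA synthetase Acsl5 fell in 129S1/SvImJ (-0.64). On HFD 5 of those 9 were lower in 129S1/SvImJ and 1, Acsl1 (0.46), was higher, where 19.1% and 17.9% of all genes were.

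**Figure D5:**
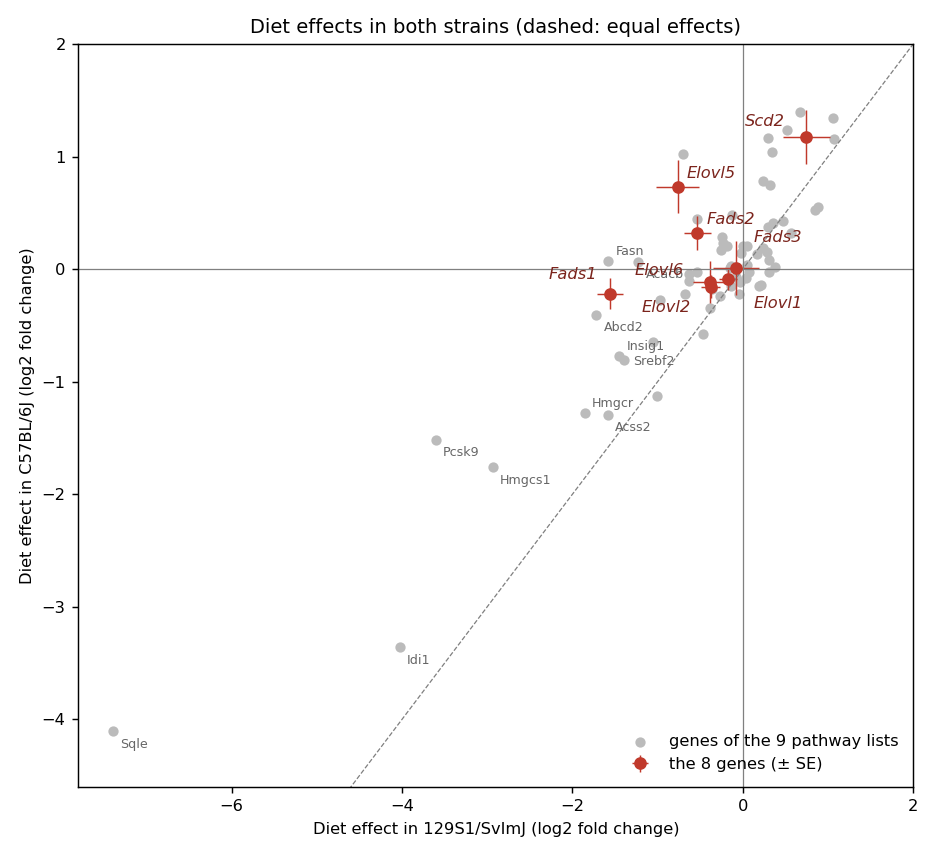
Diet effect (log2 fold change, HFD minus chow) in 129S1/SvImJ on the horizontal axis and in C57BL/6J on the vertical axis, for the 8 genes (red, with SE) and the genes of the 9 pathway lists (grey). Elovl5 and Fads2 lie left of 0 and above 0, Fads1 lies far left near the horizontal line, and Scd2 lies right of and above 0.

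The genes whose levels were most like each of the 8 were taken as the highest Pearson correlations of log2 CPM over the 24 libraries, among 10163 genes with a mean of at least 5 CPM. The libraries share strain, diet and depth, so these are descriptions. Nearest to Fads1 were Sc5d (r = 0.959), a sterol desaturase, Pcyt2 (0.926) and Utp14b (0.920). Nearest to Fads2 were Acacb (0.935), Btnl9 (0.926) and Myadm (0.926). For Elovl6 they were Gpi1 (0.945), 4930402H24Rik (0.934) and Stk38l (0.929). Elovl5 was nearest to Capn2 (0.895), Tubb2a (0.890) and Pgd (0.887), Scd2 to Tagln2 (0.909), Stk10 (0.893) and Olfm3 (0.883), and Elovl2 to Dennd3 (0.949), Sel1l3 (0.927) and Nid2 (0.926). Elovl1 (Sel1l3, 0.810) and Fads3 (Arrb1, 0.732) had no neighbour as near as these.

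After each group's mean was subtracted, Fads1 and Fads2 were each other's nearest gene of the 10163 (r = 0.919). Fads1 was also the nearest gene to Elovl2 (0.838), and Fads2 (0.796) was next after Dennd3 (0.804). Elovl5 was nearest to Capn2 (0.906), Elovl6 to Prkca (0.829) and Scd2 to Fbn1 (0.856), followed by Fasn (0.855). With Elovl2, Elovl1 had r = 0.415, Elovl5 0.264 and Elovl6 0.0301.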

How the data were processed

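Liver RNA from 24 mice was sequenced, and the authors deposited raw counts per gene, as 1 table per library and as 1 matrix, with equal values in all 24, beside a log2-scale variance-stabilized matrix used only as an alternative. Per the labels' protocols, RNA was DNase-treated, depleted of ribosomal RNA and made into strand-marked libraries. Tools listed in the submitters' processing notes are STAR 2.5.4b, Bowtie2 2.2.3, Trimmomatic 0.36 and DESeq2 1.26.0, with build mm10. Neither annotation nor strand setting of the counting is stated there. Of 53677 identifiers, 53582 matched GENCODE M21, and the 95 others held 0.00747% of counts.

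Counts were fitted in edgeR 4.0.16 (R 4.3.3) with TMM scaling, filterByExpr and a robust quasi-likelihood test over 4 group means, all 24 libraries sharing 1 estimate of the spread. P-values were adjusted by Benjamini-Hochberg over 14533 genes with a threshold of 0.05. Within-library ratios, log2 of CPM + 0.5, were compared by exact permutation over all splits in Python 3.11.15 with numpy 2.4.6. The scripts were tested on simulated data. Alternatives were DESeq2 1.42.0, limma 3.58.1, other filters, leaving out each library, and splits by 7SK level and identifier number. Listed genes named are the up to 4 of smallest p per list and comparison, with exceptions added for completeness of a count. The values of 1 listed gene are not reported here. The 8 genes and all lists were chosen with earlier results of these data known. Nothing in the labels says that mice came from separate cages or litters, and p-values measure the spread between these mice. Same-numbered libraries of different groups did not deviate together (33 pairs, correlation -0.21 to 0.281), so replicate numbers were not taken as pairs.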

Additional observations from a re-analysis of the deposited data

Results flagged for a closer look

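Among 32 sets of values (8 genes in 4 groups), 2 held a library far from the others, about as many as the 1 in 20 that chance gives. Scd2 in C57BL/6J HFD replicate 5 was at 33.1 CPM, with the other 6 libraries at 8.94 to 18.8 CPM; that library also had the highest Fads1, Fads2, Fads3, Elovl5 and Elovl6 of its group and 1.23 CPM of Adipoq. Elovl1 in 129S1/SvImJ HFD replicate 3 was at 32.9 CPM, with the other 5 at 21.1 to 25.2 CPM. The diet effect on Fads1 differed between the strains by -1.34 on the log2 scale in the test of that difference (edgeR adjusted p = 0.0082).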

How the results depend on the processing

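Mice that share an identifier number are replicates 1 to 3 against the rest, or 1 to 4 for C57BL/6J HFD, and are called the first and second set of their group here. Counts of the 8 genes called kept within 1.5 times of the reported count in 416 of 464 alternatives, and single log2 fold changes kept direction and side of the threshold in 1547 of 1704. With HFD in 129S1/SvImJ none was called higher as reported, and 1 was by DESeq2, in a fit of only the groups compared and with the replicate block. Of all genes tested, 786 were higher as reported, and 935, 869 and 775 in those settings. Leaving out 1 library gave 0 to 1 of the 8. For the 3 called lower there, the fit of only the groups compared gave 5, and the low and high 7SK levels 1 and 1. The fit without both libraries with adipocyte transcripts gave 1. The fits without the mice of any 1 identifier number in a 129S1/SvImJ group gave 1 each, and leaving out 1 library gave 1 to 4. Of all genes tested, 728 were lower as reported and 855 with only the groups compared. At the low and high 7SK levels 167 and 143 were lower. Without the adipocyte-transcript libraries it was 528, and without the mice of any 1 such number 146 to 714. Of the 2 higher in C57BL/6J, 1 was called without a filter, with only the groups compared and at the high 7SK level. The count was also 1 without the adipocyte-transcript libraries and without either chow set or the second HFD set. It was 0 at the low 7SK level, and leaving out 1 library gave 1 to 2. Of all genes tested, 1113 were higher as reported and 137 and 379 at the low and high 7SK levels. In the other settings named here 518 to 944 were higher. None of the 8 was lower in C57BL/6J, against 1 at the low 7SK level and 2 without the second HFD set. Of all genes tested, 1046 were lower as reported, and 175 and 699 in those settings. The interaction, 1 as reported, gave 3 by DESeq2 and without the first C57BL/6J HFD set, and 2 without the second 129S1/SvImJ chow set. In those settings it called 297, 136 and 168 of all genes tested, against 43 as reported. It gave 0 at either 7SK level, without the first 129S1/SvImJ chow set, without either 129S1/SvImJ HFD set and without the first C57BL/6J chow set. In these settings it called 0 to 4 of all genes tested. Leaving out 1 library gave 1 to 3. Of the 14 ratios called, 0 were at either 7SK level and 5 without the first 129S1/SvImJ chow set, where fewer libraries limit the smallest p. The replicate block, for which same-numbered libraries did not deviate together, changed no other count by over 1.5 times. The fit within the high 7SK level at the widest gap (5615 CPM) was not run, since it held libraries of 1 group only.

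Signs changed only for these uncalled values, and the cause was not tested. Fads3, at 14 to 59 counts per library, changed sign in every comparison. In 129S1/SvImJ its diet effect (-0.08) was 0.26 at the high 7SK level, 0.14 without the first chow set, 0.078 without the first HFD set and -0.23 to 0.052 over libraries left out. In C57BL/6J (0.01) Fads3 was -0.0036 by limma on variance-stabilized values, -0.031 with the replicate block, -0.79 at the low 7SK level, -0.13 without the adipocyte-transcript libraries, -0.13 without the second chow set, -0.25 without the second HFD set and -0.13 to 0.13 over libraries left out. On chow (-0.05) Fads3 was 0.093 and 0.11 with the widest-gap 7SK split and term, 0.17 at the high 7SK level, 0.068 without the second 129S1/SvImJ set, 0.086 without the first C57BL/6J set and -0.18 to 0.073 over libraries left out. On HFD (-0.14) Fads3 was 0.15 at the low 7SK level, 0.0015 without the adipocyte-transcript libraries, 0.018 without the first 129S1/SvImJ set, 0.11 without the second C57BL/6J set and -0.29 to 0.00039 over libraries left out. The Fads3 interaction (-0.09) was 0.40 at the low 7SK level, 0.12 without the adipocyte-transcript libraries, 0.13 and 0.068 without the first chow and first HFD set of 129S1/SvImJ, 0.049 and 0.16 without the second chow and second HFD set of C57BL/6J, and -0.24 to 0.042 over libraries left out. In C57BL/6J, Fads1 (-0.22) was 0.042 at the high 7SK level and 0.13 without the first HFD set, Fads2 (0.32) was -0.15 at the low 7SK level and -0.062 without the second HFD set, Elovl2 (-0.16) was 0.031 without the first HFD set, and Elovl6 (-0.11) was 0.21 without the second chow set and 0.10 without the first HFD set. On chow, Fads1 (-0.09) was 0.012 with the widest-gap 7SK term, and Elovl5 (-0.0049) was 0.039 and 0.046 by limma on variance-stabilized values and voom, 1.7e-05 and 0.013 with the widest-gap 7SK split and term, 0.075 at the high 7SK level, 0.11 without the second 129S1/SvImJ set, 0.039 without the second C57BL/6J set and -0.12 to 0.13 over libraries left out. The Elovl1 interaction (-0.08) was 0.052 at the high 7SK level and 0.0073 without the first 129S1/SvImJ chow set, and that of Elovl6 (-0.27) was 0.0072 without the first C57BL/6J chow set. Ratios of Fads1 to Fads2 on HFD were -0.057 at the low 7SK level, of Elovl6 to Elovl5 on HFD 0.035 without the first 129S1/SvImJ set, of Elovl1 to Elovl6 with diet in C57BL/6J -0.25 without the second chow set, -0.086 without the first HFD set and -0.054 to 0.16 over libraries left out, and of Scd2 to Scd1 with diet in 129S1/SvImJ 0.047 at the high 7SK level.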
